A study of Mus musculus with 4 samples.

Results

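Conventional type 1 dendritic cells (cDC1) were rare in these tumors: 93 of 37806 kept cell barcodes met the rule that defined them, 48 in the first Chromium capture reaction (0.174% of its 27645 kept barcodes) and 45 in the second (0.443% of 10161). A barcode was a member when CLEC9A, XCR1, CADM1 and CLNK together gave at least 3 unique molecular identifiers (UMIs, single counted RNA molecules) from at least 2 of these 4 genes, with at most 1 UMI of CD3D, CD3G and TRAC (T cell receptor genes), at most 3 of C1QA and C1QB (macrophage complement genes) and at most 1 of LAMP3 (a gene of mature dendritic cells). These genes chose the cells, so their levels are given below as a description only and without a test.

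The cells were human CD45+ cells sorted from MDA-MB-231 tumors, a human triple-negative breast cancer line, grown in the mammary fat pad of MISTRG mice, a strain that carries human genes for M-CSF, GM-CSF and IL-3 and was engrafted with human fetal CD34+ hematopoietic stem cells. Of 14 mice, 7 were left untreated and 7 received maraviroc, a small-molecule drug, at 300 mg/l in the drinking water for 10 days from day 21 after tumor cell injection, and tumors were taken on day 31. All 14 mice thus carried the same tumor line and the same kind of graft. Each of the 2 reactions pooled 7 mice marked with hashtag antibodies: 4 untreated and 3 maraviroc mice in reaction 1, 3 untreated and 4 maraviroc mice in reaction 2. Which stem cell donor supplied each mouse is not given in the sources used here, so differences between mice can include differences between donors.

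As background, cDC1 take up debris of dying cells with the help of receptors such as CLEC9A, present the captured antigen on MHC class I to CD8+ T cells (cross-presentation), and respond through XCR1 to XCL1 from lymphocytes. Their development depends on the transcription factors IRF8, BATF3 and ID2 and on FLT3 signaling. They are usually the scarcest conventional dendritic cells of a tumor, beside the CD1C+ cDC2 and the LAMP3+ CCR7+ mature state that either lineage can enter.

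The reactions differed in depth and in how well a barcode could be given to a mouse. Reaction 1 held 133089612 gene UMIs over 29120 barcodes with a median of 2764 UMIs per barcode, and reaction 2 held 175447534 over 13582 barcodes with a median of 10204.5. A top hashtag with at least 60% of the hashtag UMIs, here called a clear hashtag, was present on 26.6% of kept barcodes in reaction 1 and 88.2% in reaction 2. Among cDC1 the clear share was 10 of 48 in reaction 1 and 37 of 45 in reaction 2. The reactions shared 136 barcode sequences, of which 0 were cDC1 in both reactions.

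The name was checked on WDFY4, CPVL and S100B, cDC1-enriched genes that the rule did not use. Unlike WDFY4 and CPVL, S100B was not in the cDC1 gene list used below. It was among the genes most enriched in these same members, so its part in the sums is not an independent check. In reaction 2, 41 of 45 members carried at least 20 UMIs of these 3 genes together, with a median of 126, while the median was 5 in cDC2, 3 in LAMP3+ dendritic cells, 4 in C1Q macrophages and 0 in T cells. All 10 reaction 1 members with a clear hashtag reached 20 UMIs too, with a range of 20 to 231. The 38 reaction 1 members without a clear hashtag were mixed: 9 reached 20 UMIs and 15 had fewer than 5. Those 38 also carried the macrophage gene SPP1 at 2080 CPM (UMIs scaled to the summed UMIs of the same cells) and the NK cell granule gene GNLY at 1095 CPM, so the name cDC1 was not borne out for all of them, and the comparisons by mouse below use members with a clear hashtag, except where HTODemux, another way to assign cells to mice, is named. The remaining 4 members of reaction 2 had 0, 0, 0 and 3 UMIs of the 3 genes together, and none of the 4 had a CLEC9A UMI. Of these, 2 carried a clear hashtag: one, from maraviroc mouse 4, had 114 UMIs of GNLY and 17 of NKG7, another NK cell granule gene, and one, from maraviroc mouse 3, had 52 and 18.

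At the edge of the rule, reaction 1 held 15 members with exactly 3 rule UMIs and 29 barcodes left outside with 2, and reaction 2 held 1 and 3. The reaction 1 barcodes on both sides of the edge were alike in WDFY4 (172.7 CPM inside, 175.3 CPM outside). Outside, S100B (712.7 against 546.8 CPM) and SPP1 (4300 against 2130 CPM) were higher, and CPVL (572.5 against 661.9 CPM) and GNLY (1344 against 1612 CPM) lower. In reaction 2 the median was 20 rule UMIs, with 5 members under 10, of which 3 had 5 or fewer.

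**Figure D1:**
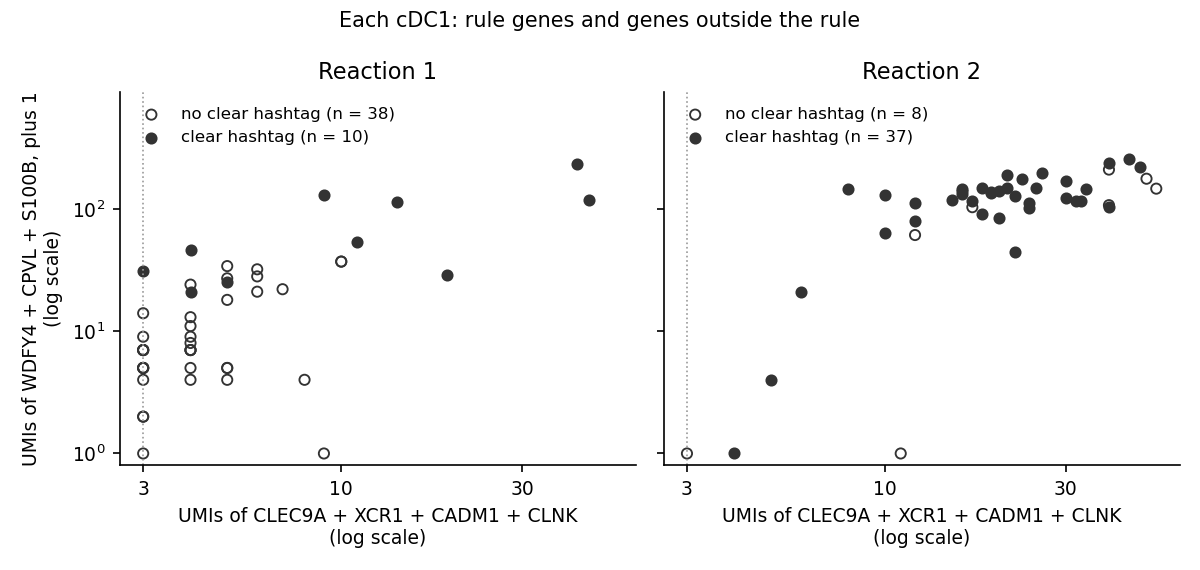
Each point is 1 cDC1, with its UMIs of the 4 rule genes on the x axis and its UMIs of WDFY4, CPVL and S100B plus 1 on the y axis, both on log scales, for reaction 1 (left) and reaction 2 (right). Filled points have a clear hashtag, and the dotted line marks the minimum of 3 rule UMIs. Members with a clear hashtag lie high on the y axis in both panels, apart from 2 in reaction 2, while the 38 open points of reaction 1 spread down to 0 UMIs.

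Among the 37 members of reaction 2 with a clear hashtag, the rule genes were spread as follows. CADM1, an adhesion molecule, was found in 37, CLNK, a signaling adaptor, in 36, CLEC9A in 33 and XCR1 in 28. Outside the rule, BATF3 was found in 32 of them, WDFY4 and CPVL in 36 each and S100B in 34. Among all 45 members the CLEC9A level was 237 CPM against 0.751 CPM in cDC2, 2.61 in LAMP3+ dendritic cells and 0.588 in C1Q macrophages, and XCR1 was at 136 CPM against 0.751, 3.66 and 0.565. The cDC2 and C1Q macrophage gates allowed at most 1 UMI of the 4 rule genes together, so low values there were fixed in advance. In T cells, which should lack both genes, CLEC9A had a UMI in 0.202% and XCR1 in 0.101% of cells, at a median of 7509 UMIs per T cell against 14941 per cDC1. CADM1 and CLNK also had UMIs in 14.4% and 23.6% of T cells (47.5 and 76.8 CPM), whose gate set no limit on the rule genes. In C1Q macrophages, whose gate did, they were at 0.972 and 1.36 CPM. When 44 of the 45 cells were thinned to 5000 UMIs, 1 being too shallow, CLEC9A remained detected in 68.2% (95% exact interval 52.4 to 81.4%), which was 86.7% before thinning. These intervals cover counting error only.

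Against the other kept barcodes of reaction 2, the genes with high ratios in its 45 members included S100B, a calcium-binding protein (3270 against 43.8 CPM), NEGR1, an adhesion molecule (381 against 5.17), HLA-DOB, a modulator of MHC class II peptide loading (101.7 against 1.42), GNAO1, a G protein subunit (144 against 2.16), and CCSER1 (1643 against 37.05). DNASE1L3, a secreted nuclease that digests chromatin in extracellular particles, stood at 238.5 against 7.59 CPM, IDO1, the tryptophan-degrading enzyme, at 430 against 17.4, WDFY4, which is required for cross-presentation of cell-associated antigen, at 1590 against 78.5, and ENPP1, an ectoenzyme that hydrolyses extracellular cGAMP, at 249 against 7.05. These ratios describe cells that were picked by their own RNA and were not tested.

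Markers of other cell types were counted in the same 37 cells. Mast cell markers were at 0 for all 5 genes. The macrophage list summed to 154 CPM with 7 of 8 genes seen, led by SPP1 at 78.6 CPM, and APOE was at 0. The T cell list summed to 42.7 CPM with CD3G and IL7R at 0, and the B cell list to 58.1 CPM. The monocyte list summed to 2114 CPM, of which LYZ, lysozyme, gave 1400 and S100A12 was at 0. The NK cell list summed to 390 CPM, with GNLY at 292. That NK signal came from few cells: it was 881.5 CPM in maraviroc mouse 3 and 1403 CPM in maraviroc mouse 4, against at most 54.9 CPM in the other 5 mice of reaction 2. The cycling list summed to 191 CPM. The mature LAMP3+ dendritic cell list summed to 355.5 CPM with 6 of 8 genes seen, led by BIRC3 at 149 CPM, with CCL19 and CCL22 at 0, and the plasmacytoid list to 265 CPM with 8 of 8 genes seen, led by IRF7 at 95.7 CPM. The cDC2 list summed to 224 CPM, of which CD1C gave 198, with FCER1A, CD1E and CD1D at 0.

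The keratins KRT8, KRT18 and KRT7 and the tumor genes TM4SF1 and S100A2 were at 0 in the 37 cells. CLEC4C and CXCR3 were singled out after their values were seen. CLEC4C, better known from plasmacytoid dendritic cells, gave 24 UMIs in 17 of 45 members (32.5 CPM), with 0.859 CPM in C1Q macrophages and UMIs in 0.236% of T cells. CXCR3, a receptor for interferon-induced chemokines, was found in 14 of 45 members at 25.8 CPM, against 0.751 CPM in cDC2 and 0.994 in C1Q macrophages, although T cells carried more of it (55.5 CPM).

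**Figure D2:**
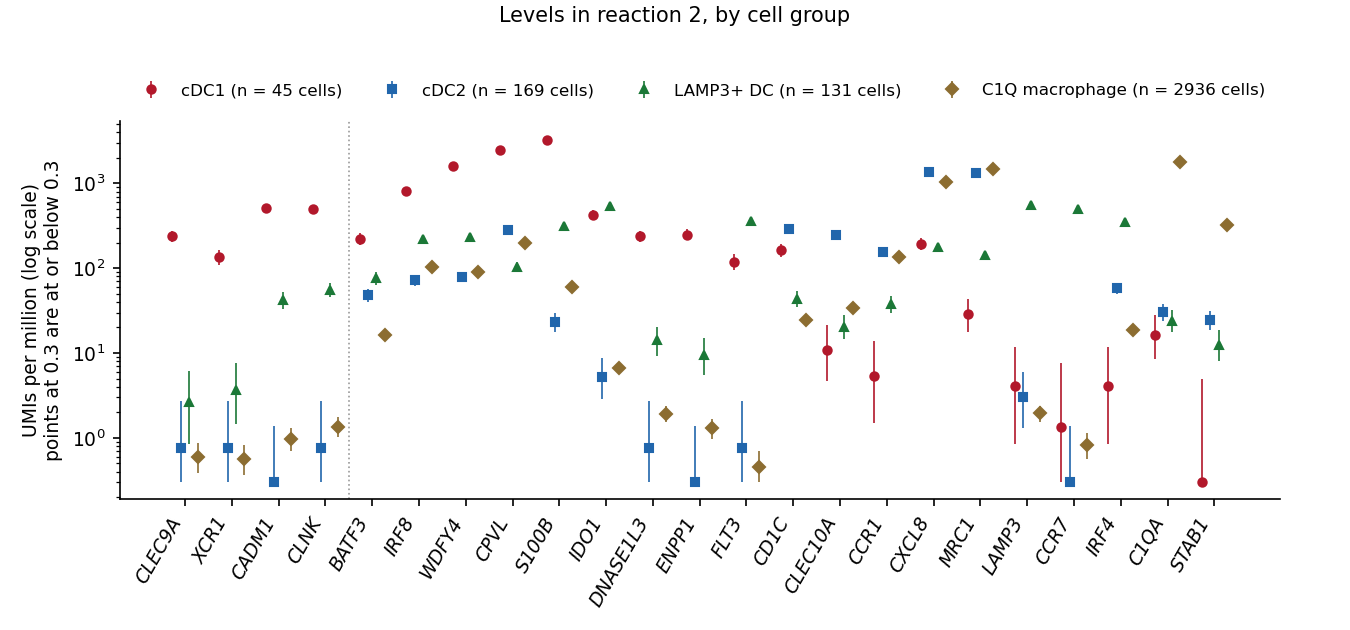
Levels in reaction 2 of 23 genes (CPM, log scale) for 45 cDC1, 169 cDC2, 131 LAMP3+ dendritic cells and 2936 C1Q macrophages. Bars are 95% exact Poisson intervals over all cells of a group (counting error only), genes left of the dotted line belong to the rule, and points at 0.3 are at or below that level. CLEC9A, XCR1, S100B and WDFY4 are highest in cDC1, whereas CCR1, MRC1 and CXCL8 are lower in cDC1 than in cDC2. The cDC2 and C1Q macrophage gates limited the rule genes, so their low values there were fixed in advance.

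CD1C, the antigen-presenting molecule that marks cDC2, was present in some cDC1 of reaction 2 and not in others. It was found in 13 of 45 reaction 2 members (28.9%; 25% of 44 cells thinned to 5000 UMIs, 95% exact interval 13.2 to 40.3%), against 1.31% of T cells. In reaction 1, CD1C was found in 0 of 10 members with a clear hashtag and in 2 of 38 without one, at 1 UMI each. Of the 13 cells, 10 held at least 3 CD1C UMIs, 3 held 1 or 2, and the highest held 27. In mice, CD1C was seen in 1 of 3, 3 of 5 and 2 of 4 cells of untreated mice 1 to 3 and in 0 of 7, 3 of 5, 2 of 6 and 0 of 7 cells of maraviroc mice 1 to 4. Both maraviroc mice without CD1C had 7 cDC1 each, and the groups overlapped.

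The 13 CD1C-bearing cells were set beside the 28 members without CD1C that had at least 5 UMIs of WDFY4, CPVL and S100B, a limit chosen after the values were seen, so the rule fixed that both sets carry CLEC9A, XCR1, CADM1 or CLNK and the limit fixed that the 28 carry the other 3 genes. CLEC9A stood at 297 CPM (95% Poisson interval 226 to 384) in CD1C-bearing cells and 236 CPM (195 to 283) in the others, CADM1 at 440 and 573 CPM, BATF3 at 215 and 246 CPM, and WDFY4 at 1833 and 1640 CPM. XCR1 was 87.1 CPM (50.7 to 139) against 163 CPM (130 to 203). S100B was 4706 against 3013 CPM, IRF8 1106 against 756 CPM, HLA-DRA 12170 against 8868 CPM, and LYZ 912 against 1765 CPM. FCER1A and CD1E, other cDC2 genes, had 0 UMIs in both sets, and CLEC10A, a cDC2 lectin, had 8 UMIs in the CD1C-bearing cells and 0 in the others. The intervals are of counts within 1 reaction and say nothing about variation between mice.

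Gene levels were then compared with those of cDC2, LAMP3+ dendritic cells and C1Q macrophages of the same mice, to place cDC1 among the myeloid cells of these tumors. Counts were summed per mouse and cell group in the 7 mice of reaction 2 that had at least 3 cDC1 with a clear hashtag, and tested with edgeR's quasi-likelihood test with the mouse as a block and Benjamini-Hochberg adjustment over all genes tested. Genes were called at an adjusted p under 0.05, fold changes are log2 values of cDC1 minus the other group, and levels are normalized CPM, scaled by the trimmed mean of M values (TMM) within a comparison. The 14 genes used by any gate were left out of the counts, and the gates fixed which cells were set against each other.

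Against cDC2, 2250 genes were tested, of which 45.6% were called, 21.9% as higher and 23.7% (534 genes) as lower in cDC1. Of a 34-gene cDC1 list outside the rule, 21 passed the count filter and all 21 were higher, with a median log2 fold change of 3.01 against -0.04 over all genes tested. The filter partly fixed that count: 13 genes were not tested, and ENPP1 and DNASE1L3 had 0 and 2 UMIs in cDC2, so they passed through the cDC1 counts. WDFY4 ranged from 1714 to 3455 normalized CPM in cDC1 (median 2335) and from 47.0 to 120 in cDC2 (median 88.4). No cDC2 value came near a cDC1 value, and the log2 fold change was 4.76 (SE 0.18, edgeR's quasi-likelihood test, adjusted p = 5.7e-10). S100B ranged from 3300 to 7763 in cDC1 (median 4748) and from 4.81 to 78.5 in cDC2, with a log2 fold change of 7.42 (SE 0.39). IDO1 was more variable, from 122 to 1215 in cDC1 (median 532) and from 0 to 14.4 in cDC2, and was still higher in 7 of 7 mice (log2 fold change 6.38, SE 0.46). The lineage factors IRF8 (3.77), ID2 (2.35) and BATF3 (2.31) were all higher. BCL6, a transcriptional repressor, had the smallest change of the list (0.60) and was not called by DESeq2 (adjusted p = 0.052), which called 20 of the 21, nor without untreated mouse 1, 2 or 3 or maraviroc mouse 1 or 4 of reaction 2 (edgeR's adjusted p = 0.0741 to 0.103). ENPP1 had 0 UMIs in cDC2 and was at least 192-fold higher in cDC1, taking 3 counts over all 7 mice as the floor. Outside the list, ZEB1, a transcription factor, was higher by 6.67 (317.5 against 2.03 normalized CPM) and CCND1, cyclin D1, by 5.94 (648 against 9.20).

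Among genes lower than in cDC2 were several known from monocytes and macrophages. The gated cDC2 of reaction 2 with a clear hashtag carried the monocyte list at 7716 CPM, against 5389 CPM in C1Q macrophages and 2114 CPM in cDC1, and the macrophage list at 1788 CPM, led by MRC1, and the part of such cells within the cDC2 gate in these differences was not tested. MRC1, the mannose receptor, ranged from 0 to 42.3 normalized CPM in cDC1 and from 1193 to 2141 in cDC2 (log2 fold change -6.29, SE 0.38). CXCL8, a neutrophil chemokine, ranged from 0 to 181 in cDC1 (median 27.6) and from 793 to 2742 in cDC2 (median 961), with a log2 fold change of -5.07 (SE 0.34). IL1B (-4.91), CXCL3 (-4.97) and CCL2 (-4.84) were also lower, while CXCL16, the ligand of CXCR6, was the 1 of 5 tested chemokine and cytokine genes that was higher (0.79). FCN1, a monocyte lectin, was lower by 6.11 on the log2 scale (log2 fold change -7.34 to -5.69 with each mouse left out). CCR1, MMP19 and LUCAT1 had 0 UMIs in the cDC1 of these mice and were at least 30-fold, 41.4-fold and 39.7-fold lower. Of 10 transcription factors tested, ZEB2 (-4.05), CEBPB (-2.09), RBPJ (-1.38) and TCF4 were lower, and IRF8, BATF3 and ID2 were higher. Over all genes tested 23.7% were lower and 21.9% higher, so nothing is read from the transcription factor counts.

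Antigen presentation genes were called in both directions, beside 21.9% higher, 23.7% lower and a median of -0.04 over all genes tested. Nothing is read from the counts of lower genes. Of 15 pan-dendritic and MHC class II genes tested, 9 were higher and 5 lower in cDC1 than in cDC2 (median 0.85). HLA-DQA1 (2.79), HLA-DPB1 (2.21) and HLA-DRA (0.77) were higher, and the costimulatory genes CD86 (-1.73) and CD80 (-1.29), the integrin ITGAX (-2.30), CTSS, a lysosomal protease (-1.27), and CIITA, the class II transactivator (-0.71), were lower. In the MHC class I and cross-presentation list, 9 of 17 tested genes were higher and 3 lower (median 0.54). TAP1, a peptide transporter, stood at 1.84, PSMB9, an immunoproteasome subunit, at 1.65 and B2M at 0.99. Among the 3 lower genes, CYBB (-3.75) and RAC2 encode parts of the phagocyte NADPH oxidase. CYBB ranged from 0 to 280 normalized CPM in cDC1 and from 799 to 1020 in cDC2. HLA genes are polymorphic and alike in sequence, so reads can be shared among them and their values are less certain. Of 5 maturation genes tested, none was called, and of 8 interferon-stimulated genes IFI6 (-2.21) and IRF1 (-1.19) were lower, a share near the 23.7% called lower over all genes. IRF1 lost its call without the mouse block (edgeR's adjusted p = 0.153).

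Against LAMP3+ dendritic cells, 1913 genes were tested, of which 45.9% were called, 400 (20.9%) as higher and 479 (25%) as lower in cDC1. With upper-quartile scaling in place of TMM the split was 494 higher and 402 lower, and the median over all genes moved by 0.15, so small changes depend on the scaling. The gate for the LAMP3+ cells did not exclude the cDC1 rule genes. Of 21 tested genes of the cDC1 list, 16 were higher and 2 lower (median 2.38 against -0.05 over all genes). CPVL, a serine carboxypeptidase, ranged from 2079 to 4714 normalized CPM in cDC1 (median 3898) and from 29.3 to 268 in LAMP3+ cells (median 106), with a log2 fold change of 5.13 (SE 0.34). CST3, cystatin C, was higher by 4.09 (36030 ± 10890 against 2409 ± 1611, SD, n = 7 mice). WDFY4 (2.92), IRF8 (2.38) and BATF3 (1.85) were higher as well.

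FLT3, the growth factor receptor of dendritic cell precursors, went the other way. It ranged from 82.4 to 323 normalized CPM in cDC1 (median 164) and from 333 to 719 in LAMP3+ cells (median 536), and was lower in cDC1 in 7 of 7 mice (-1.52, SE 0.25), while ID2 was lower by 0.79. IDO1 ranged from 120 to 1185 in cDC1 and from 110 to 1129 in LAMP3+ cells. The groups overlapped throughout (log2 fold change -0.18, SE 0.31, edgeR's quasi-likelihood test, adjusted p = 0.669). Of 22 maturation and checkpoint genes, 7 passed the count filter and 6 of these were lower in cDC1, a count that the filter partly fixed, since PDCD1LG2 passed through the LAMP3+ cells alone: FSCN1, the actin bundler of mature dendritic cells (-4.24), IL15 (-3.95), the NF-kB genes BIRC3 (-3.28) and RELB (-1.97), IL4I1 (-2.10) and PDCD1LG2, the PD-1 ligand PD-L2, which had 0 UMIs and was at least 41.1-fold lower. HAVCR2, the checkpoint receptor TIM-3, was higher (1.03, SE 0.26). IRF4 was at 0 in the cDC1 of 5 mice, at 27.4 and 39.9 normalized CPM in the other 2, and from 146 to 907 in LAMP3+ cells (-6.00, SE 0.60, from 3 UMIs in cDC1). WNT5B, a Wnt ligand, had 0 UMIs in cDC1 and was at least 208-fold lower. CCR7, which steers mature cells to lymph nodes, and CD274, which encodes PD-L1, did not pass the count filter. Their levels over all reaction 2 cells were 1.36 CPM in cDC1 against 495 in LAMP3+ cells for CCR7, and 0 UMIs against 257 CPM for CD274.

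Presentation genes were called in both directions against LAMP3+ cells, beside 20.9% higher and 25% lower over all genes. Of 15 class II and pan-dendritic genes, 9 were higher and 4 lower (median 1.53), the lower ones including CD86 (-2.34) and CD80 (-2.01). Of 13 class I genes, TAP1 (1.57), CALR (1.39), PSMB9 (0.96) and PDIA3 (0.63) were higher and SEC61B (-0.62) was lower, so that few of this list were called and nothing is read from the direction of these counts. SEC61B lost its call with upper-quartile scaling (-0.47, edgeR's adjusted p = 0.079) and without untreated mouse 1 or 2 or maraviroc mouse 4, and PDIA3 lost it with HTODemux assignment (0.60, adjusted p = 0.064, edgeR) and without untreated mouse 1 or 2 or maraviroc mouse 1, 2 or 3. HLA-B, HLA-C and B2M were not called, at 0.28, -0.05 and 0.11.

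Against C1Q macrophages, whose summed counts were far larger, 10581 genes were tested and 34.2% were called, 1050 (9.92%) as higher and 2564 (24.2%) as lower in cDC1. The median over all genes was -0.42, and upper-quartile scaling moved it by 0.31 and the split to 1559 higher and 1827 lower. Values in this paragraph should be read against that median. Of 29 tested genes of the cDC1 list, 25 were higher and 3 lower (NFIL3, THBD and NECTIN2), with a median of 3.12. FLT3 ranged from 72.4 to 225 normalized CPM in cDC1 (median 132) and from 0 to 0.931 in macrophages (8.38, SE 0.42). CXCR3 ranged from 10.7 to 51.1 in cDC1 (median 37.4) and from 0.381 to 1.57 in macrophages, and was higher in 7 of 7 mice (5.31, SE 0.57). LY75, the uptake receptor DEC-205, was higher by 2.22 and CXCL16 by 1.63. TNF was called higher (2.40, SE 0.40), but untreated mouse 3 stood at 741 normalized CPM and the other 6 mice at 21.2 to 93.6, against 11.9 to 24.95 in macrophages. Without untreated mouse 3 the log2 fold change of TNF was 1.45 and the call held (edgeR's quasi-likelihood test, adjusted p = 0.00596).

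Of the 5 lists described next, some members could pass the count filter only through the far larger macrophage counts, so their counts are a description, beside 24.2% called lower over all genes tested. At most 3 UMIs in cDC1 were found for 6 of the tested uptake receptors, 5 of the lipid, iron and oxidative stress genes, 2 of the interferon-stimulated genes, 3 of the sensors and 4 of the chemokine and cytokine genes. Of 13 efferocytosis and uptake receptors, 12 were lower, with STAB1 and MERTK at 0 UMIs and at least 64.5-fold and 57.2-fold lower, and MRC1 at -6.69. Of 18 lipid, iron and oxidative stress genes, 13 were lower and 1, FABP5, was higher (1.18). SPP1, osteopontin, ranged from 25.6 to 119 normalized CPM in cDC1 (median 86.9) and from 6254 to 16230 in macrophages (median 10640), with a log2 fold change of -6.89 (SE 0.16). TREM2 had 0 UMIs and was at least 13.4-fold lower. Of 16 interferon-stimulated genes, 12 were lower and none higher, among them GBP1 (-4.20), IFIT2 (-4.06) and IFIT3, which had 0 UMIs and was at least 27.3-fold lower. With upper-quartile scaling 12 of them were lower and 1 was higher. Of 12 pathogen and damage sensors, 10 were lower, including TLR4 at 0 UMIs and at least 11.2-fold lower. Of 15 chemokine and cytokine genes, 11 were lower, and CXCL10, a CXCR3 ligand, gave 1 UMI in cDC1 against 561 ± 273 normalized CPM in macrophages (SD, n = 7 mice).

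**Figure D3:**
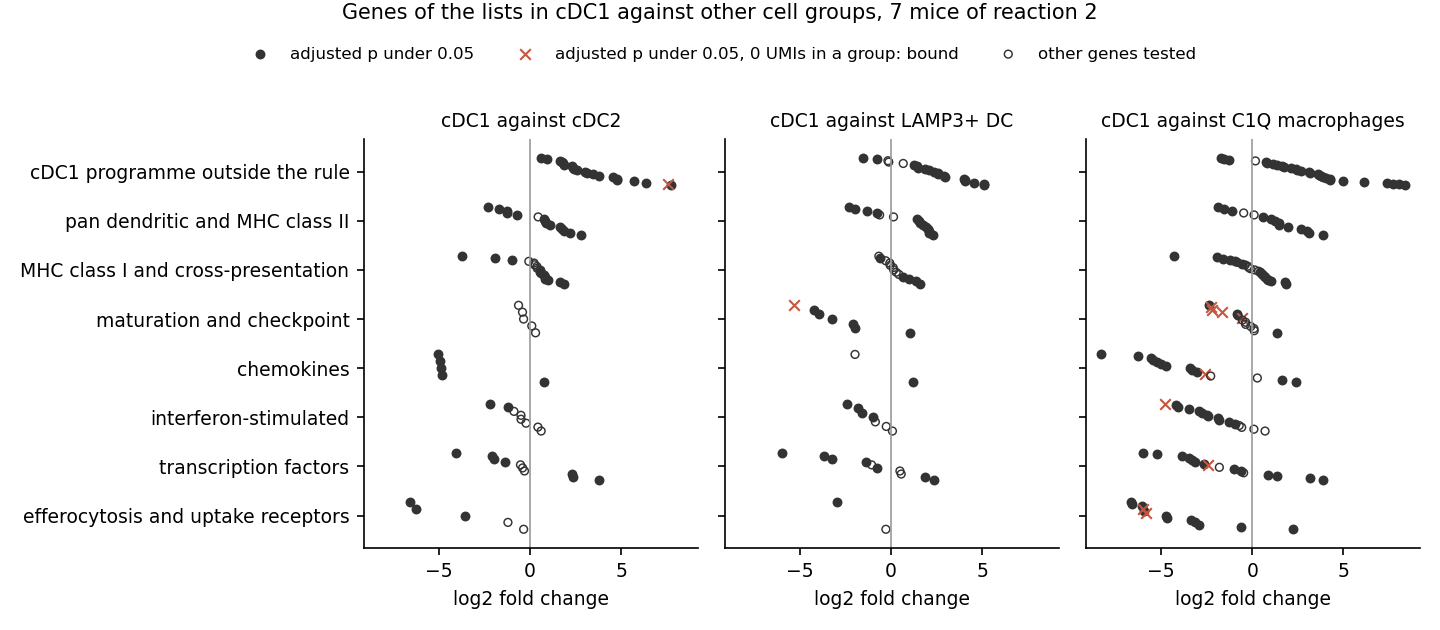
Log2 fold changes of listed genes in cDC1 against cDC2, LAMP3+ dendritic cells and C1Q macrophages, 7 mice of reaction 2, each point 1 gene and each row 1 list. Filled points were called, open points did not, and crosses mark called genes with 0 UMIs in a group, drawn at their bound. The cDC1 list lies to the right of 0 in all 3 panels apart from 4 genes against LAMP3+ cells (2 of them called) and 3 against macrophages, and the uptake receptor list lies to the left against macrophages apart from LY75.

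Whether maraviroc changed how many cDC1 were captured was asked per mouse. In reaction 1 the untreated mice had 0, 2, 0 and 0 cDC1 among 849, 959, 946 and 1196 kept cells with a clear hashtag, and the maraviroc mice had 5, 1 and 2 among 1188, 1302 and 921. In the 3 untreated mice without a cDC1, a floor of 3 cells is 0.353%, 0.317% and 0.251%, and the 95% exact upper limits are 0.434%, 0.389% and 0.308%. In reaction 2 the untreated mice had 3, 5 and 4 among 1257, 1430 and 930, and the maraviroc mice 7, 5, 6 and 7 among 1444, 1365, 1399 and 1141. The shares overlapped between treatments in both reactions. Every untreated mouse of reaction 2 was above every untreated mouse of reaction 1, and 1 maraviroc mouse of reaction 1 (0.421%) lay among those of reaction 2.

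The mean share was 0.175 ± 0.179% in untreated and 0.373 ± 0.177% in maraviroc mice (SD, n = 7 each), a difference of 0.197 percentage points that did not pass (two-sided exact permutation test over mice, p = 0.0629, adjusted over 2 shares 0.126). The reactions held different numbers of mice of each treatment. Within reactions the direction was the same: 0.0521% against 0.238% in reaction 1 (exact permutation p = 0.0857) and 0.340% against 0.473% in reaction 2 (exact permutation p = 0.143). With mice permuted only within their reaction, the same difference gave an exact permutation p = 0.0114 (adjusted 0.0229). Among barcodes with at least 5000 UMIs the difference was 0.332 points (exact permutation p = 0.0111, adjusted 0.0221). A stricter hashtag limit of 80% gave a difference of 0.123 points (exact permutation p = 0.353), and HTODemux gave 0.150 points (exact permutation within reactions, p = 0.058, adjusted 0.116). Under HTODemux the untreated mice of reaction 1 had 5, 3, 2 and 0 members, but 15 of its 23 members in that reaction had no clear hashtag, and of these 15 the name was not borne out for all: 8 had at least 20 UMIs of WDFY4, CPVL and S100B, 4 had fewer than 5, and 4 had at least 10 UMIs of GNLY. The HTODemux means were 0.164% against 0.270% in reaction 1 (exact permutation p = 0.343) and 0.396% against 0.520% in reaction 2 (exact permutation p = 0.286). Without the members under 10 rule UMIs, which removes both NK-marked cells, the difference was 0.191 points (exact permutation p = 0.0664). The difference between reactions in the treatment effect was -0.0523 points (exact permutation p = 0.744).

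As a share of gated conventional dendritic cells (cDC1, cDC2 and LAMP3+ cells), cDC1 made up 8.88 ± 9.56% in untreated and 14.6 ± 8.46% in maraviroc mice (SD, n = 7 each), a difference of 5.72 points (exact permutation p = 0.252). Reaction 2 alone gave -0.13 points (exact permutation p = 1) and reaction 1 alone 10.5 points (exact permutation p = 0.2). The share per mouse rests on 10 to 70 conventional dendritic cells.

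**Figure D4:**
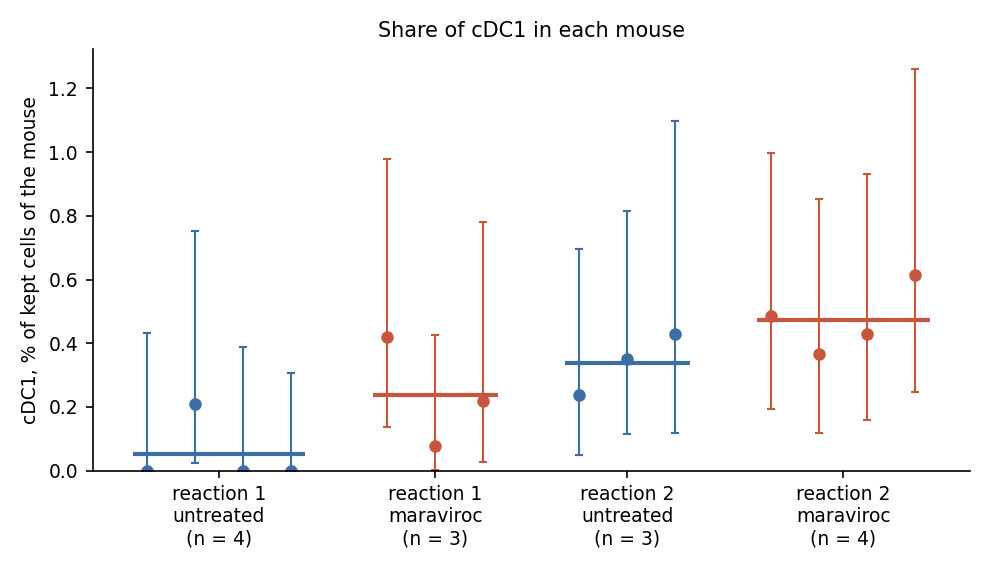
Share of cDC1 among kept cells with a clear hashtag (percent, y axis) in each of 14 mice, by reaction and treatment. Points are mice, bars are 95% exact binomial intervals (counting error only) and horizontal lines are group means. Maraviroc means lie above untreated means in both reactions (0.238% against 0.0521%, and 0.473% against 0.340%), and the mice overlap.

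Gene levels within cDC1 were compared between 4 maraviroc and 3 untreated mice of reaction 2. Of 1450 genes tested none was called (0%) by edgeR's quasi-likelihood test with Benjamini-Hochberg adjustment, 77 (5.31%) had an unadjusted p under 0.05, and DESeq2 called 0 as well. The mice held 3 to 7 cDC1 each. With the count filter, all adjusted p-values of the genes named here with a test were at least 0.901. Without that filter 21 genes were called (18 higher and 3 lower, of 13242 tested). FARS2, named below, was among them (edgeR's quasi-likelihood test, adjusted p = 0.0289). The median log2 difference over all genes was then 0.42, against 0.01 with the filter, so the split should be read against that shift.

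The class II genes HLA-DQA1 and HLA-DPB1 had the 2 lowest p-values among the genes with lower values in maraviroc mice, and HLA-DQB1 was the tenth. HLA-DQA1 stood at 2267, 2932, 2009 and 3492 normalized CPM in maraviroc mice 1 to 4 and at 3952, 4247 and 5111 in untreated mice 1 to 3. The groups did not overlap, and the log2 difference was -0.73 (SE 0.21, edgeR's quasi-likelihood test, adjusted p = 0.901). HLA-DPB1 stood at 7490, 10090, 7768 and 9303 in maraviroc and at 10640, 12780 and 14740 in untreated mice (-0.55, SE 0.16). HLA-DQB1 (-0.51), HLA-DPA1 (-0.40) and CD74 (-0.39), the class II invariant chain, also had all maraviroc mice below all untreated mice, as 53 of 1450 genes did (3.66%), whereas HLA-DRA (-0.28) and HLA-DRB1 (-0.37) overlapped. HLA genes are polymorphic and the stem cell donor of each mouse is not given, so donor alleles cannot be told apart from treatment in these HLA values. Over the 13 tested genes of the class II and pan-dendritic list, 0 had a log2 difference above 0 (median -0.37, against 0.01 over all genes), 5 had an unadjusted p under 0.05 and none was called. The 12 tested class I genes had a median of -0.11. The NK cell markers given above were high in maraviroc mice 3 and 4. Without the members under 10 rule UMIs, which removes those cells, HLA-DQA1 was at -0.59 and HLA-DPB1 at -0.44. CD1C-bearing cells, whose HLA-DRA was the higher of the 2 sets above, made up 6 of 12 cDC1 in untreated and 5 of 25 in maraviroc mice, and their part in the class II values was not tested. Cycling markers ranged from 0 to 418 CPM in maraviroc and from 0 to 102.5 CPM in untreated mice, and without cycling cells the 2 genes were at -0.60 and -0.39.

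**Figure D5:**
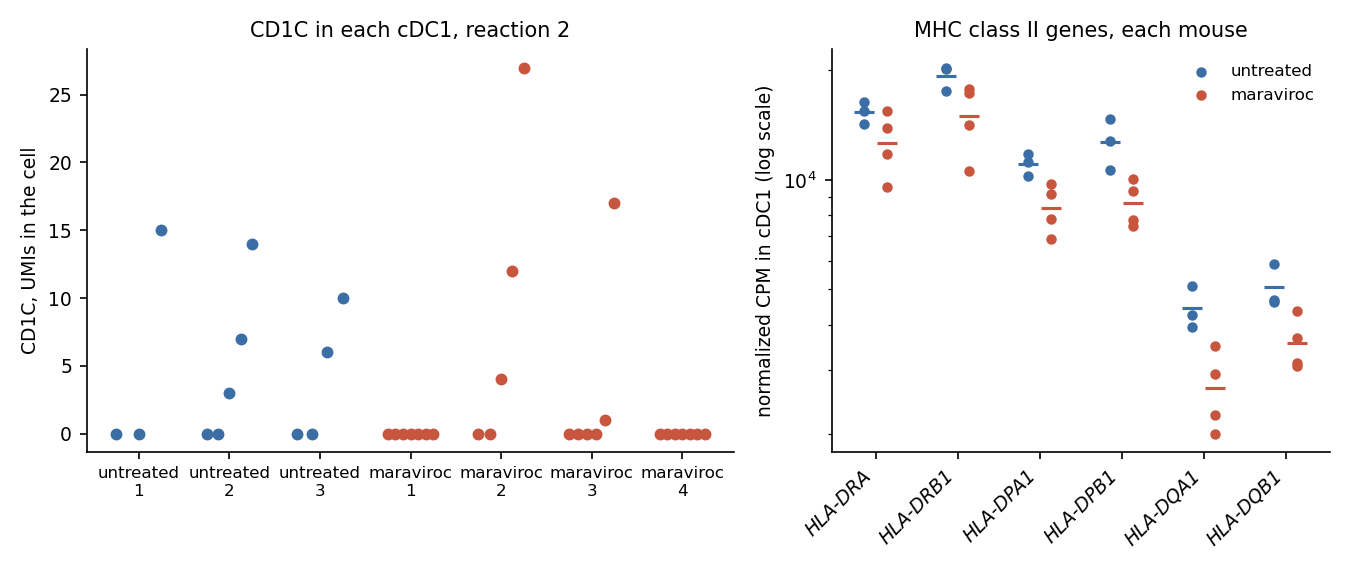
Left: CD1C UMIs in each cDC1 of reaction 2 with a clear hashtag, by mouse. Right: normalized CPM (log scale) of 6 MHC class II genes in the summed cDC1 of each mouse, with untreated mice in blue, maraviroc mice in orange and means as bars. CD1C is spread over 5 of 7 mice, and the maraviroc points of HLA-DPA1, HLA-DPB1, HLA-DQA1 and HLA-DQB1 lie below the untreated points, with no gene passing the adjusted test.

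The genes of the cDC1 list showed no called difference between treatments. Of 25 tested, 5 had values above 0 and the median was -0.32, against 749 of 1450 and 0.01 over all genes tested. WDFY4 stood at 2374, 2078, 2363 and 1629 normalized CPM in maraviroc and at 1989, 2627 and 3341 in untreated mice (-0.32, SE 0.22), and IRF8 at 884, 999, 1075 and 1270 against 1524, 1027 and 2044 (-0.51, SE 0.26). BATF3 overlapped fully (-0.05, SE 0.38). C1orf54 (-0.63) and CYB5R3 (-0.92) had all maraviroc mice below all untreated mice, as 53 of 1450 genes did (3.66%). CLEC9A, a rule gene and so described without a test, was at 303, 306, 170 and 290 in maraviroc and at 465, 395 and 668 in untreated mice.

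Among the genes with higher values in maraviroc mice, SIK3, a salt-inducible kinase, stood at 1089, 838, 1061 and 704 normalized CPM in maraviroc and at 310, 632 and 157 in untreated mice (1.24, SE 0.38). PA2G4, a growth-regulated RNA-binding protein, stood at 229, 145, 184 and 345 against 77.5, 59.3 and 39.3 (1.87, SE 0.54), and DST, a cytoskeletal linker, at 262, 193, 269 and 262 against 129, 119 and 78.6 (1.13, SE 0.41). For all 3 genes every maraviroc mouse lay above every untreated mouse, as for 39 of 1450 genes (2.69%), and none of the 3 was called. FARS2, CNOT2, GPCPD1, UBE2F, PTPN1, AP3B1 and ECPAS were the other 7 of the 10 genes with the lowest p in this direction, with log2 differences between 1.22 and 1.77. PKIB (-1.67), CD69, an early activation antigen (-1.09), CST3 (-0.55), SNHG5 (-1.01) and VAV3 (-0.86) completed the 10 genes with the lowest p in the other direction.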

How the data were processed

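Cells of 14 mice were captured in 2 Chromium 3' v3.1 reactions. The authors deposited gene and hashtag counts per barcode (UMIs, not normalized), made with Cell Ranger 9.0.1 on GRCh38 and processed with Seurat 5.1.0 per the labels. The organism label names the mouse, and the genes counted are human. Which hashtag belonged to which treatment came from the names that the feature tables give the hashtags. Summed counts, CPM and everything else were computed here.

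Barcodes with more than 600 and at most 6000 genes and under 12.5% mitochondrial UMIs were kept. A mouse was assigned where its hashtag held at least 60% of hashtag UMIs, with HTODemux (Seurat 5.3.0, quantile 0.99) as an alternative, which called 13 of 48 reaction 1 and 9 of 45 reaction 2 cDC1 doublets (36.8% and 21.1% of kept barcodes). Of these, 4 had a clear hashtag and stayed in the comparisons by mouse. No doublet caller on RNA was run. cDC2 had at least 3 UMIs of CD1C, FCER1A, CLEC10A and CD1E, LAMP3+ cells at least 2 of LAMP3, C1Q macrophages at least 10 of C1QA and C1QB, and T cells at least 3 of CD3D, CD3G and TRAC. The cDC2 and C1Q macrophage gates also allowed at most 1 UMI of the 4 cDC1 rule genes together.

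The planned minimum of 10 cDC1 per mouse was reached by 0 mice, so at least 3 in reaction 2 (7 mice) was used, chosen after the cell counts were seen. The study's own samples pool mice, and mice are the replicates. Counts per mouse were tested in edgeR 4.0.16 (R 4.3.3; TMM, filterByExpr, SE from the F statistic), and shares by exact permutation. DESeq2 1.42.0, upper-quartile scaling, no count filter, other depth, hashtag and rule limits, cycling cells, single reactions and left-out mice were alternatives. Named genes were the 15 with the largest change each way (adjusted p under 0.05, at least 50 CPM, same direction in every mouse), the 10 with the lowest p each way for treatment, the 25 most enriched, and list members by size or level. Members and lists were chosen with earlier results of these data known. The tests were tried on simulated counts first. Sex-linked and donor-marking genes were left out. Some genes are not reported here.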

Additional observations from a re-analysis of the deposited data

Results flagged for a closer look

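In groups of 4 or 7 mice, 32 sets of values were examined for a mouse far from the others. Of these, 5 stood apart, all in groups of 4. Chance alone marks about 1 in 20 such groups, though most of the genes examined were picked for a low treatment p. In reaction 1, untreated mouse 2 had a cDC1 share of 0.209% of kept cells and 20% of conventional dendritic cells where the other 3 untreated mice had 0, which rests on 2 cells. FARS2 was at 1113 normalized CPM in maraviroc mouse 1 of reaction 2, against 340 to 373 in the other 3 maraviroc mice. DST was at 193 normalized CPM in maraviroc mouse 2, against 262 to 269. CLEC9A was at 170 normalized CPM in maraviroc mouse 3, against 290 to 306, and that mouse held 1 of the 2 members with NK cell markers, whose part in the value was not tested.

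Some barcodes without a clear hashtag also met the cDC1 rule, though WDFY4, CPVL and S100B did not bear the name out for all of them. Of 21479 kept barcodes without a clear hashtag, 46 met the rule (0.214%, 95% exact interval 0.157 to 0.286%, against a floor of 0.014% for a count of 3). Of these, 17 were HTODemux singlets and entered the treatment comparisons made with HTODemux, and the others entered none.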

How the results depend on the processing

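The difference in the share of cDC1 among kept cells stayed above 0 in every alternative run. It passed with mice permuted within reactions (0.197 points, exact permutation p = 0.0114) and among barcodes with at least 5000 UMIs (0.332 points, p = 0.0111, exact permutation). With each mouse left out it was 0.157 to 0.247 points (exact permutation p = 0.0227 to 0.122). Unadjusted, it passed without maraviroc mouse 2 (0.247) or 3 (0.223) of reaction 1 and without untreated mouse 2 (0.226) or 3 (0.240) of reaction 2. Adjusted over 2 shares, it passed without the first of these only (exact permutation, adjusted p = 0.0455, 0.0991, 0.0921 and 0.0548). HTODemux singlets gave 0.150 points (exact permutation p = 0.135). The share of conventional dendritic cells fell to -0.13 points in reaction 2 alone, and was 1.36 points at the 80% hashtag limit (exact permutation p = 0.78), 3.05 with HTODemux singlets (p = 0.574, exact permutation), 9.27 among barcodes with at least 5000 UMIs (p = 0.0693, exact permutation) and 3.66 to 7.75 with each mouse left out. The causes were not tested.

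Without the count filter, 21 genes were called between treatments (18 higher and 3 lower, of 13242 tested), among them FARS2 (1.72, edgeR's adjusted p = 0.0289). The median over all these genes was 0.42, against 0.01 with the filter. Without it, 1592 and 1514 genes were called lower than in cDC2 and LAMP3+ cells, of more genes tested, with medians of -0.48 and -0.63. BATF3, uncalled between treatments at -0.05, turned to 0.055 without the filter, 0.073 with HTODemux, 0.18 without cycling cells, 0.047 and 0.091 with both reactions at 2 or more cells with and without a reaction term, and -0.31 to 0.15 with each mouse left out. In reaction 1 alone C1orf54 was at 0.054, CST3 at 0.56 and WDFY4 at 0.63, from 3 maraviroc mice against 1 untreated mouse with 2 cDC1, which is assumed to vary like the others, so these turned directions rest on that mouse. The 30 genes with the largest changes against cDC2 (472 values), LAMP3+ cells (491) and C1Q macrophages (499) kept direction and call wherever tested. Some were not tested in every alternative: MIR924HG against LAMP3+ cells was tested in 5 fits with a mouse left out. Leaving out each mouse was added after the data were seen. These genes were chosen for the same direction in every mouse, so a kept direction there was partly fixed. Sizes moved more with each mouse left out. Against cDC2, log2 fold changes ranged from -7.34 to -5.69 for FCN1, -6.09 to -4.48 for CXCL3 and 6.08 to 7.25 for IDO1. IRF4 against LAMP3+ cells ranged from -7.06 to -5.58. List members were less stable: 17 of 69 called against cDC2, 7 of 58 against LAMP3+ cells and 26 of 144 against C1Q macrophages lost their call in at least 1 alternative, and 0 values turned direction. Of those named, these were BCL6, CXCL16 (without untreated mouse 1 or 2), RAC2 (without maraviroc mouse 1), CIITA and IRF1 against cDC2, and SEC61B, PDIA3, HAVCR2 and ID2 against LAMP3+ cells. Without the mouse block, 553 and 581 genes were higher and lower than in cDC2. No paired analysis was possible between treatments because each mouse received 1 treatment. Reaction 1 alone could not be fitted against other cell groups, with 1 mouse at 3 or more cells. Depth limits all per-mouse values: 3 to 7 cells and 36415 to 155578 UMIs of cDC1 per mouse.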
